A study of Mus musculus with 40 samples.

Results

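IAP long terminal repeats (LTRs) were examined in total RNA from mouse embryonic stem (mES) cells and epiblast-like cells (EpiLCs) with and without the nuclear lamina proteins that tether heterochromatin to the nuclear edge. The members are the copies of every transposable element (TE) family whose name begins with IAP and is not an internal part, 15117 copies in 15 families of 3799629 TE copies in 1243 families, and the same 15 families in a table that also counts multimapped reads. Each copy was placed inside a gene span when it overlapped a gene of the gene table by any base (3177 copies) and outside when it did not (11940 copies, of which 10275 lay over 5 kb from any gene). Naive mES cells were grown in inhibitors of MEK and GSK3 with LIF. EpiLCs, which model the epiblast of the implanting embryo, were collected 48 h after transfer to 20 ng/mL FGF and 12 ng/mL Activin A. WT cells (8 libraries a stage) were compared with LBRKO cells, which were made from WT by cutting *Lbr* with Cas9, with TKO cells, which carry deletions of *Lmna*, *Lmnb1* and *Lmnb2*, and with QKO cells, a single clone of the TKO line with small deletions in both *Lbr* alleles, a frameshift in 1 and in-frame in the other (4 libraries each a stage). WT and LBRKO cells therefore share 1 line of origin and TKO and QKO cells share another. Each library came from its own well, so the p-values set a difference against well-to-well variation alone. Which LBRKO clone gave each library is not in the labels.

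IAP elements (intracisternal A particles) are endogenous retroviruses of the ERVK class that are still mobile in mice. A complete element has an internal part with the gag, pro and pol genes and an identical LTR at each end, and recombination between its LTRs leaves a solo LTR behind. The LTR carries the promoter and the polyadenylation signal, an intact one begins with TG and ends with CA, and it is rich in CpG dinucleotides. In mouse stem cells IAPs are known to be silenced by KRAB zinc finger proteins, TRIM28 and the H3K9 methyltransferase SETDB1, and by DNA methylation, and an LTR that escapes silencing can start or end transcripts of a nearby gene.

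The sequences of the copies with the largest changes in naive cells are shown first. They are the opening 300 bases, read 5′ to 3′ along the strand of the copy, of the 5 named copies with the highest folds in QKO mES cells, taken from the GRCm39 genome, followed by the copy with the strongest fall, which was chosen after its values were seen. Capitals mark CpG dinucleotides. The coordinates in this order are chr11:6741021-6741320 (plus strand), chr7:6614826-6615125 (plus), chr16:13747862-13748161 (plus), chr7:6627199-6627498 (plus), chr16:8825064-8825363 (minus) and chr2:154196183-154196482 (plus).
IAPLTR2a2_Mm_dup1160: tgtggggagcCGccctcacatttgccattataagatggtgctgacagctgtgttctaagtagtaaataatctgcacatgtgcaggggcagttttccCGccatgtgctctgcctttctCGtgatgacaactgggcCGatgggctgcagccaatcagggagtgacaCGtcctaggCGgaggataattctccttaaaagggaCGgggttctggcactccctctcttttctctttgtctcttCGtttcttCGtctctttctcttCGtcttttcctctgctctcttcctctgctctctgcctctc
IAPLTR3_dup48: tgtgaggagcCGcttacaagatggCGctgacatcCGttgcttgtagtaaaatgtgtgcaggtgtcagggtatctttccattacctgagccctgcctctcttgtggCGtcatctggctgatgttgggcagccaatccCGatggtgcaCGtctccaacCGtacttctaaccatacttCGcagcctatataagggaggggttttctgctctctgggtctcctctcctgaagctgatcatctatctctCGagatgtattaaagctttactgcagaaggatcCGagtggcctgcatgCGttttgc
IAPLTR2_Mm_dup1441: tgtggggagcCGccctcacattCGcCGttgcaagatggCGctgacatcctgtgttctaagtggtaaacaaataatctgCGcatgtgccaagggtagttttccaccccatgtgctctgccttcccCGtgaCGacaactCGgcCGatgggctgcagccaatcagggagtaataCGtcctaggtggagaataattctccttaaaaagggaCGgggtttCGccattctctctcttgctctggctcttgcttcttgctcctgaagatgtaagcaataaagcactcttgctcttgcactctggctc
IAPEY2_LTR_dup396: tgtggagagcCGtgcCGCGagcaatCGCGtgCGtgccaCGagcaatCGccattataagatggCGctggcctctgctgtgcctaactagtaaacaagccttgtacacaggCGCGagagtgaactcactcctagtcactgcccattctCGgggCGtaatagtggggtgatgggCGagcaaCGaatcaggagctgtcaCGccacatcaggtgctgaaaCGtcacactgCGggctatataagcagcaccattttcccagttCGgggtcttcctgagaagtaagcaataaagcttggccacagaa
IAPLTR3_dup935: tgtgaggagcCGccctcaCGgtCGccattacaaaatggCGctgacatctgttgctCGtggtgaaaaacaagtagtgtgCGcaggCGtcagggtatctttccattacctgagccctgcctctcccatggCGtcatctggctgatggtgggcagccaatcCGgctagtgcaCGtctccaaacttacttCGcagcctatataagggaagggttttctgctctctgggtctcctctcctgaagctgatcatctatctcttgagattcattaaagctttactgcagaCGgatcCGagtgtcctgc
IAPLTR1_Mm_dup216: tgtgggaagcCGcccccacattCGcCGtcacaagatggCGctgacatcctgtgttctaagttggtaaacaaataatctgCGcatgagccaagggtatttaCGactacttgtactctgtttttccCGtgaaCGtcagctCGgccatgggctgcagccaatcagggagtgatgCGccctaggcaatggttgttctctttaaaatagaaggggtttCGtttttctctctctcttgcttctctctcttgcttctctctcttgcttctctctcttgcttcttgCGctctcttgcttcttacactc

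All 6 begin with TG, but 2 of the annotated copies (dup935 and dup216) also end with CA, as 28.7% of all IAP LTR copies run from TG to CA. They hold 10, 11, 12, 19, 13 and 12 CpGs in the printed bases, in the order shown. The IAPLTR3 copies dup48 and dup935 were identical at 92.0% of 300 aligned bases. Of the 10909 IAP LTR copies at least 300 bases long, 69.1% held the letters AAGATGGCG on the sense strand of their opening 300 bases (69.1% on either strand), the core of a motif that the factor YY1 is known to bind, against 0.977% of 32851 RefSeq promoter windows of the same length (1.40% on either strand). CCAAT was present on the sense strand in 70.02% of the copies and 21.1% of the promoters (70.9% and 37.4% on either strand), TATAA in 52.8% and 17.5% (53.0% and 24.9%) and AATAAA, the polyadenylation signal, in 52.4% and 11.3% (53.2% and 19.6%). The ends of these motifs share letters (AATAAA can run into CCAAT or TATAA, for example), so the searches are not independent. Among the 122 such copies that were later tested, AAGATGGCG was found in 78.7%, CCAAT in 69.7%, TATAA in 49.2% and AATAAA in 37.7% on the sense strand. Of the printed copies, dup48, dup1441, dup396 and dup216 held AAGATGGCG and dup1160 and dup935 did not. The families differed in these letters. AAGATGGCG was held by 99.6% of the IAPLTR1_Mm copies and 35.0% of the IAPLTR3 copies, and TATAA by 9.17% of the former and 97.6% of the latter.

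The libraries held 22.6 to 48.9 M counts on genes and 1521 to 6101 uniquely mapped counts on IAP LTRs. WT replicates 5 to 8 and the LBRKO libraries were deeper than the rest. The labels do not say which WT libraries were made with which mutant, so a set of libraries and a genotype cannot be told apart, and results that depend on the WT libraries used are given with the processing alternatives. *Lmnb1* and *Lmnb2* were lower in every TKO and QKO comparison with WT (log2 differences from −9.26 to −4.61), *Lmna* was lower by −1.86 in TKO and −1.6 in QKO mES cells but not past 2-fold in EpiLCs, and *Lbr* was lower by between −0.83 and −0.49 in LBRKO and QKO cells, short of the fold limit. The 6 naive markers all fell and the 5 EpiLC markers found all rose from WT mES cells to WT EpiLCs. In mutant EpiLCs the EpiLC markers summed to 2718 to 3039 CPM in LBRKO and 2315 to 2423 CPM in QKO, below the 3285 to 4008 CPM of WT, and the naive markers to 195 to 295 CPM in LBRKO, above the 104 to 173 CPM of WT. TKO EpiLCs overlapped WT in both. Primitive endoderm markers summed to 19.2 to 21.8 CPM in LBRKO mES cells against 7.77 to 9.86 CPM in WT (2 of 6 higher) and to 3.18 to 4.79 CPM in QKO mES cells (3 of 6 lower). Trophectoderm markers summed to 65.0 to 72.1 CPM in QKO mES cells against 102 to 117 CPM in WT. Fibroblast markers summed to at most 14.1 CPM. Markers of 2-cell-like cells, which are known to express some retroviral LTRs, summed to 6.35 to 10.2 CPM in WT EpiLCs and to at most 2.48 CPM in every mutant EpiLC library, and to at most 1.47 CPM in mES cells. WT mES replicate 7 had the highest IAP LTR sums of its group. The part of other cell types, or of cells at another point between the stages, in the IAP LTR results was not tested. In bulk RNA, fewer cells that transcribe an LTR and less LTR RNA per cell cannot be told apart.

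Most IAP LTR copies had no uniquely mapped read. Of 15117 copies, 5325 had at least 1 read in the 40 libraries, and 155 passed the low-count filter over the 8 groups, 114 inside gene spans (34 of them overlapping an exon) and 41 outside. A copy that passed only through the group where it is high had to differ, so the counts among the 155 describe these copies and not all members. IAP LTRs lay inside gene spans less often than TE copies as a whole (21.0% against 45.5%), and 70.4% of their 143151 unique reads fell inside. In WT mES cells they had 64.5 CPM inside and 26.2 CPM outside on average, against 90371 and 23459 CPM for other TE copies. Of all tested TE copies 86.4% lay inside, a larger share than the 114 of 155 here. Of the IAP LTR copies, 361 overlapped an exon. By structure, 6467 copies were solo LTRs with no internal IAP part within 100 bp, 4568 stood on the 5′ side and 4022 on the 3′ side of an internal part, and 60 lay between 2 internal parts. Of the 155 tested copies, 109 were solo, 29 on the 3′ side, 17 on the 5′ side and none of the 60 was among them. The Y chromosome held 2153 copies with 344 reads in all. It held 783 of the 966 IAPLTR3 copies, with 11 reads.

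How far single copies can be told apart differed by family. For IAPLTR1_Mm, a young family whose copies are alike, unique reads came to 24.0% of its multimapped count over all libraries (19824 against 82675), and for IAPLTR1a_Mm to 40.3%, against 73.1% for IAPEY2_LTR and 74.2% for IAPLTR2_Mm. For IAPEY4_LTR, IAPEY_LTR, IAPEY5_LTR and IAPLTR2a2_Mm the unique counts were above the multimapped ones (124%, 126%, 138% and 148%), so the tables differ in more than the use of ambiguous reads. One copy, IAPLTR2a2_Mm_dup1201 in an intron of *Ncbp3* (chr11:72954290-72954692), held 6.28% of all unique IAP LTR reads.

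The summed level of all copies outside genes was higher than in WT in QKO cells at both stages and in TKO mES cells. Levels are given in CPM, in which each library's counts were divided by its gene count total times a TMM factor of the gene table. Outside gene spans the sum had its lowest, median and highest values in WT mES cells at 22.9, 25.05 and 34.7 CPM, and in WT EpiLCs at 16.5, 19.9 and 22.2 CPM. It was 26.2 ± 3.77 CPM in WT mES cells (SD, n = 8), 26.1 ± 1.62 CPM in LBRKO, 39.6 ± 3.09 in TKO and 62.3 ± 3.5 in QKO (n = 4 each, in CPM). The QKO mES libraries, at 59.8 to 67.4 CPM, did not overlap any other genotype of that stage, and the TKO libraries, at 36.1 to 43.0 CPM, lay above every WT library. On the log2 scale the difference from WT was 1.26 in QKO and 0.60 in TKO mES cells (two-sided exact permutation test, p = 0.00202, the smallest that 8 against 4 libraries can give, and Benjamini-Hochberg adjusted p = 0.00833 over 33 such tests), and 0.00 in LBRKO (adjusted p = 0.96, exact permutation). In EpiLCs the outside sum was 19.4 ± 2.14 CPM in WT, 22.4 ± 5.04 CPM in LBRKO, 21.6 ± 1.09 in TKO and 49.4 ± 2.66 in QKO. QKO EpiLCs, at 46.0 to 52.5 CPM, again lay above every other library of the stage, by 1.35 against WT (exact permutation, adjusted p = 0.00833), whereas the differences of TKO (0.16, adjusted p = 0.11) and LBRKO EpiLCs (0.19, adjusted p = 0.209) did not pass the exact permutation test.

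Inside gene spans the same sum was higher than in WT in QKO cells at both stages and in LBRKO EpiLCs. It was 64.5 ± 10.9 CPM in WT, 76.1 ± 7.5 CPM in LBRKO, 72.9 ± 4.74 in TKO and 103 ± 7.30 in QKO for mES cells, all in CPM. For EpiLCs the values were 54.4 ± 6.95 CPM in WT, 71.9 ± 20.1 CPM in LBRKO, 52.7 ± 4.32 in TKO and 102 ± 3.90 in QKO. QKO was higher than WT by 0.68 in mES cells and 0.91 in EpiLCs (exact permutation, adjusted p = 0.00833 for both), and no QKO library overlapped WT. Other TE copies inside genes were also higher in QKO, at 125961 CPM against 90371 CPM in WT for mES cells. In EpiLCs they had 132897 CPM in QKO against 96881 CPM in WT. The inside rises of the IAP LTRs depend on the scaling. TMM factors computed on the TE copies move every difference between QKO and WT by −0.75 in mES cells and −0.81 in EpiLCs, which is more than the inside rise in mES cells and less than the outside rises. TKO differed from WT inside by 0.19 in mES cells (adjusted p = 0.147) and −0.04 in EpiLCs (adjusted p = 0.735, exact permutation), neither past the threshold. LBRKO mES cells differed by 0.25 (adjusted p = 0.081). Without WT mES replicate 7, the highest of its group, TKO (0.26) and LBRKO (0.32) mES cells both passed (exact permutation, adjusted p = 0.02). LBRKO EpiLCs were higher by 0.37 (exact permutation, adjusted p = 0.0493), and their 4 libraries ran from 54.0 to 98.4 CPM and overlapped WT. This call rests on single libraries, since it was lost without LBRKO replicate 3 (0.21) or 4 (0.33) and without any 1 of WT replicates 1 to 6 (0.33 to 0.38).

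**Figure D1:**
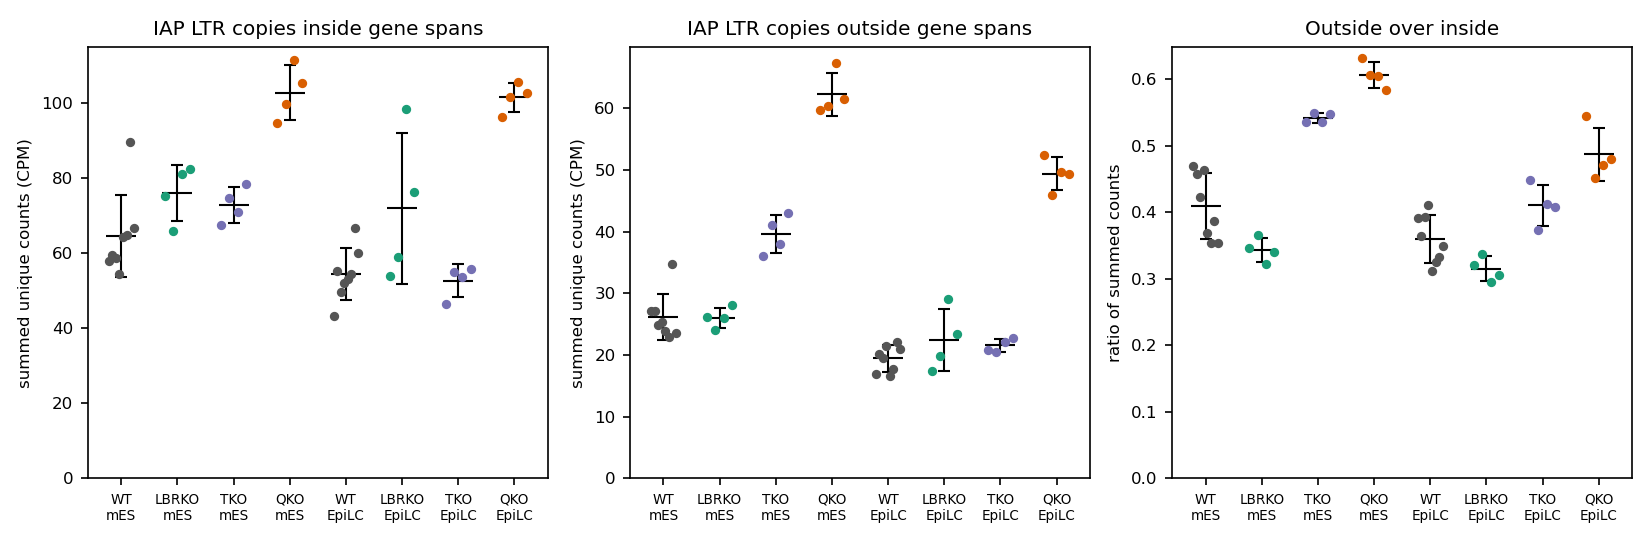
Summed unique counts of all IAP LTR copies per library inside gene spans (left, CPM), outside gene spans (middle, CPM) and the ratio of the outside to the inside sum (right, no unit), with 1 point per library, bars for the mean and whiskers for the SD (n = 8 for WT, n = 4 for each mutant). Outside gene spans every QKO library stands above all libraries of the other genotypes at the same stage, and in mES cells TKO lies between WT and QKO.

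The ratio of the outside to the inside sum tests whether the places moved unequally. The ratio was 0.410 in WT, 0.344 in LBRKO, 0.542 in TKO and 0.607 in QKO mES cells, and 0.360 in WT, 0.315 in LBRKO, 0.411 in TKO and 0.487 in QKO EpiLCs. It was higher than in WT by 0.41 on the log2 scale in TKO mES cells (exact permutation, adjusted p = 0.0148, with 0.26 against WT replicates 1 to 4 alone and 0.57 against replicates 5 to 8 alone, both past the test), by 0.58 in QKO mES cells and by 0.44 in QKO EpiLCs (exact permutation, adjusted p = 0.00833 for both). In LBRKO mES cells it was lower by −0.25 (exact permutation, adjusted p = 0.0429), which was lost without LBRKO replicate 1, 3 or 4 or WT replicate 1, 2 or 4 (−0.25 to −0.22). The LBRKO and TKO EpiLC ratios differed from WT by −0.19 and 0.19 (exact permutation, adjusted p = 0.0564 and 0.056). Other TE copies outside genes were also higher. Copies of the ancient L2 and MIR families that lie over 5 kb from any gene, 64136 in all, had 94.5 CPM in WT mES cells, 130 in TKO and 215 in QKO, and in EpiLCs 78.3 in WT and 168 in QKO (log2 differences of 0.48, 1.21 and 1.12 against WT). All other TE copies outside genes rose by 0.75 in QKO mES cells and by 0.44 in QKO EpiLCs. The ratio of outside IAP LTRs to those ancient copies, a measure added after seeing the data, differed between QKO and WT by 0.05 in mES cells (exact permutation, adjusted p = 0.62) and by 0.23 in EpiLCs (exact permutation, adjusted p = 0.0296 over 22 added tests). The EpiLC value no longer passed without any 1 QKO library (0.18 to 0.27) or without WT replicate 2 or 5 (0.23).

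From WT mES cells to WT EpiLCs part of the IAP LTRs fell. Of the 15 families in the multimapped table, 1 fell and none rose, against 2.19% of all TE families lower and 2.36% higher, and the median log2 difference was −0.23 (range −1.09 to 0.58) against 0.15 over all TE families. The count of 0 families higher was the same in edgeR and DESeq2, and at an unadjusted p under 0.05 edgeR placed 1 family above WT mES cells and 6 below. The family that fell was IAPEY_LTR, which had 5.54 to 9.77 CPM in the 8 WT mES libraries and 1.80 to 4.82 CPM in the 8 WT EpiLC libraries with no overlap (log2 −1.09 ± 0.15, SE, adjusted p = 2.85e-08, and −0.99, just short of 2-fold, without WT EpiLC replicate 5). IAPLTR1_Mm, the most abundant LTR family, went from 55.8 ± 4.82 to 37.6 ± 2.09 CPM (−0.57 ± 0.06, adjusted p = 3.59e-10), short of the fold limit. Among the tested copies, 43 of 155 fell (27.7%, where 9.8% of all tested TE copies fell) and 8 rose (background 10.9%). Of the 41 outside genes, 20 fell and edgeR called none higher (3 were above at an unadjusted p under 0.05), against 22.1% and 14.5% of all tested copies outside genes, and the median was −1.16 against 0.05 over all of those. Inside, 23 of 114 fell (background 7.85%) and 8 rose (10.3%). Summed outside genes, the level was lower in WT EpiLCs by −0.43 (exact permutation, adjusted p = 0.00513), and inside by −0.24 (exact permutation, adjusted p = 0.0429). The inside value no longer passed without any 1 of WT EpiLC replicates 1, 3, 4, 5 and 6 or WT mES replicates 6, 7 and 8 (−0.24 to −0.17).

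The copies that fell most in the WT passage lay outside genes. IAPLTR2b_dup486 (chr6:44219140-44219457, minus strand), 158850 bp from the nearest gene, had 0.434 to 1.14 CPM in the WT mES libraries, and in WT EpiLCs it had reads in 1 of 8 libraries, at 0.0898 CPM (log2 −5.57 ± 0.49, adjusted p = 1.92e-16). IAPLTR2a2_Mm_dup565 (chr5:114837537-114837988), 7832 bp from *Tchp*, had 0.361 to 0.723 CPM in WT mES cells and at most 0.0342 CPM in WT EpiLCs (−4.99 ± 0.53, adjusted p = 6.75e-13). Inside genes, IAPEY_LTR_dup321 in an intron of *Dkc1*, which encodes the pseudouridine synthase dyskerin, fell by 1.42 ± 0.16 (adjusted p = 5.39e-12) while *Dkc1* changed by −0.19. IAPEY4_LTR_dup27 overlaps an exon of the zinc finger gene *Zfp975* on the same strand and fell by 1.45 ± 0.18 (adjusted p = 9.81e-11), and the gene's own count was lower by −1.5. IAPLTR4_dup87 in an intron of *Sorcs2*, for a sortilin-related receptor, fell by 1.84 ± 0.35, and *Sorcs2* was lower by −1.76. The 1 named copy that rose was IAPLTR2_Mm_dup1421, which overlaps an exon of *Pphln1*, a gene whose product periphilin belongs to the HUSH silencing complex, on the opposite strand. It had 0.0967 to 0.355 CPM in WT mES cells and 0.547 to 2.16 CPM in WT EpiLCs (2.55 ± 0.32, adjusted p = 3.16e-10), and *Pphln1* was higher by 2.01. Of the 22 inside copies that fell and whose host gene was tested, 15 had a host that also fell, and 7 of the 8 that rose had a host that rose. Of all tested genes 12.9% fell and 18.2% rose. Whether reads over such a copy come from the LTR or from the gene cannot be told apart in these counts.

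Few IAP LTRs differed between LBRKO and WT cells. In LBRKO mES cells none of 15 families was called (background 0.525% higher, 0.0876% lower) with a median of 0.05, and edgeR called none of 155 copies in either direction (background 0.396% higher and 0.445% lower), with 12 copies above and 8 below WT where no adjustment was made. DESeq2 also called no family and no copy there, and before adjustment edgeR placed 1 family above and 1 below WT. In LBRKO EpiLCs neither edgeR nor DESeq2 called a family (background 0.876% higher), while 6 were higher at an unadjusted p under 0.05 and IAPEY_LTR had 5.97 ± 1.77 CPM against 3.49 ± 1.09 CPM in WT (0.78 ± 0.17, adjusted p = 0.000703, short of the fold limit). IAPEY_LTR falls from WT mES cells to WT EpiLCs, and the part of the LBRKO stage-marker sums given above in its level was not tested. Of the copies, 5 of 155 rose in LBRKO EpiLCs (background 1.18%, 3 without LBRKO replicate 4) and none fell by edgeR or DESeq2 (background 0.279%), with 5 below WT at an unadjusted p under 0.05. IAPLTR2a2_Mm_dup1201, the copy in an intron of *Ncbp3*, a cap-binding protein gene, had 6.61 to 10.003 CPM in the 4 LBRKO EpiLC libraries against 2.15 to 5.82 CPM in the 8 WT libraries (1.16 ± 0.17, adjusted p = 1.06e-06), and *Ncbp3* itself differed by 0.64. IAPLTR2a2_Mm_dup862, which overlaps an exon of *Ppib*, for cyclophilin B, had 1.09, 1.15, 1.07 and 1.94 CPM against 0.235 to 0.808 CPM (1.31 ± 0.28, adjusted p = 0.00224, and 1.06, no longer called, without replicate 4, the highest), and *Ppib* differed by 0.11.

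In TKO cells, which lack the lamins, IAP LTRs were higher in the naive state, mostly outside genes. In TKO mES cells 1 of 15 families rose (background 2.1%), 10 were higher at an unadjusted p under 0.05, and 13 of the 15 differences were above 0, with a median of 0.51 against 0.25 over all TE families. The family called, IAPLTR3, had 0.992, 1.14, 1.71 and 2.15 CPM in the 4 TKO mES libraries and 0.569 to 0.942 CPM in the 8 WT libraries (1.06 ± 0.21, adjusted p = 0.000212). Without TKO replicate 3 or 4, the libraries with its highest values, the difference was 0.98 or 0.84 and the family was not called. IAPEY2_LTR (0.80), IAPLTR2a2_Mm (0.76), IAP1-MM_LTR (0.72) and IAPEY_LTR (0.70) followed, all short of 2-fold. With reads split by place, 3 of 15 families rose outside genes (background 6.08%), IAPLTR3 by 1.89 (adjusted p = 0.000517), IAPEY_LTR by 1.13 (adjusted p = 0.00021) and IAPEY2_LTR by 1.04 (adjusted p = 8.81e-05). Inside, 1 of 15 rose (background 1.23%), IAPEY4_LTR by 1.03 (adjusted p = 9.09e-07). Single copies held much of some of these rises. The copy dup935 held 61.7% of the outside IAPLTR3 rise. IAPEY4_LTR_dup27, at the *Zfp975* exon, held 96.3% of the inside IAPEY4_LTR rise (2.46 of 2.55 CPM). The top copy held 22.2% of the outside IAPEY_LTR rise and 9.98% of the outside IAPEY2_LTR rise. Of the tested copies 16 of 155 rose (background 3.44%) and 6 fell (0.674%). Outside, 10 of 41 rose where 13.6% of all tested copies outside did, and inside 6 of 114 where 1.84% did. In TKO EpiLCs none of the families was called by edgeR or DESeq2 (background 0.701% higher), 4 were higher at an unadjusted p under 0.05, and of the copies 1 rose (background 2.02%) and 8 fell (0.537%).

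Of the copies that rose in TKO mES cells, IAPLTR3_dup935 (chr16:8825029-8825363), 10768 bp from the nearest gene, had 0.198, 0.571, 0.648 and 0.584 CPM in TKO mES cells against 0.0242 to 0.181 CPM in WT (2.6 ± 0.53, adjusted p = 0.000365). IAPEY_LTR_dup1257 (chr14:75304467-75304850), 14494 bp from *Rubcnl*, had 0.726, 0.571, 1.47 and 0.803 CPM against 0.0595 to 0.338 CPM (2.13 ± 0.42, adjusted p = 0.000161), and *Rubcnl* was higher by 1.67. IAPLTR2a2_Mm_dup1263 overlaps an exon of the unnamed gene *Gm30198* on the same strand and rose by 2.13 ± 0.53 (adjusted p = 0.00514), with the gene at 1.96. These copies did not overlap WT in any library, which was a condition for naming them.

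In QKO cells the LTR families rose broadly. In QKO mES cells 9 of 15 families rose, where 25.1% of all TE families did, and in QKO EpiLCs 10 of 15 rose, where 26% did. DESeq2 called 10 at each stage. Neither tool called a family lower, and none was below WT at an unadjusted p under 0.05. All 15 differences were above 0 at both stages, with medians of 1.19 (range 0.15 to 2.05) and 1.15 (0.49 to 1.89) against 0.82 and 0.85 over all TE families, so that IAPLTR1_Mm, IAPLTR1a_Mm, IAPLTR2_Mm and IAPEY3C_LTR, though above 0 in mES cells, lay below the TE families as a whole. IAPLTR3 led in naive cells, and 11 of its 1560 unique reads over all libraries were on the Y chromosome. It had 2.06, 3.61, 3.07 and 3.21 CPM in QKO mES cells against 0.569 to 0.942 CPM in WT (2.05 ± 0.20, adjusted p = 7.27e-11). In EpiLCs it had 0.771, 1.44, 1.499 and 1.70 CPM in QKO against 0.480 to 0.858 CPM in WT, with 1 QKO library inside the WT range (1.15 ± 0.22, adjusted p = 2.01e-05). IAPEY_LTR had 20.0, 16.2, 17.8 and 19.4 CPM in QKO mES cells against 5.54 to 9.77 CPM in WT (1.31 ± 0.17, adjusted p = 2.09e-08). In EpiLCs IAPEY_LTR had 13.9, 12.5, 12.6 and 12.9 CPM against 1.80 to 4.82 CPM (1.89 ± 0.17, adjusted p = 3.57e-12), so that the WT and QKO libraries stood well apart at both stages. The part in the EpiLC value of the lower EpiLC marker sums of QKO was not tested. IAP1-MM_LTR had 8.51, 6.80, 6.16 and 6.46 CPM in QKO EpiLCs against 1.38 to 2.54 CPM in WT (1.89 ± 0.17, adjusted p = 4.55e-12), and it rose by 1.57 ± 0.17 in QKO mES cells (adjusted p = 8.81e-10).

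The other families called in both QKO comparisons were IAPLTR2a2_Mm (1.28 in mES cells and 1.63 in EpiLCs), IAPEY2_LTR (1.36 and 1.29), IAPEY3_LTR (1.31 and 1.06), IAPLTR4 (1.19 and 1.62), IAPLTR2b (1.02 and 1.15) and IAPEY5_LTR (1.92 and 1.02). The level of IAPEY5_LTR was near the floor, at 0.240 CPM in WT mES cells and 0.188 CPM in WT EpiLCs on average. IAPLTR2b fell just short of 2-fold in mES cells without QKO replicate 3 or 4 or WT replicate 2, 5 or 8 (0.95 to 0.99), IAPEY3_LTR did so in EpiLCs without QKO replicate 2 or WT replicate 6 (0.96 and 0.97), and IAPEY5_LTR was not called in EpiLCs without QKO replicate 1 or 2 or WT replicate 2, 3 or 6 (0.83 to 1.004). IAPLTR2a passed in EpiLCs (1.15) and was at 0.86 in mES cells. IAPLTR1a_Mm (0.75 and 0.83), IAPLTR2_Mm (0.62 and 0.93), IAPEY4_LTR (0.98 and 0.51) and IAPEY3C_LTR (0.49 at both stages) did not pass. IAPLTR1_Mm, which alone held 44.6% of the multimapped IAP LTR level in WT mES cells, had 47.9 to 63.3 CPM in WT and 60.8, 65.9, 62.7 and 57.6 CPM in QKO mES cells. These overlapped (0.15 ± 0.08, adjusted p = 0.122). In EpiLCs IAPLTR1_Mm had 33.0 to 39.5 CPM in WT and 62.5 to 65.7 CPM in QKO with no overlap (0.76, short of the fold limit). Summed over all 15 families the multimapped level of naive cells was 125 CPM in WT against 205 in QKO, and that of EpiLCs 96.9 against 201.

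**Figure D2:**
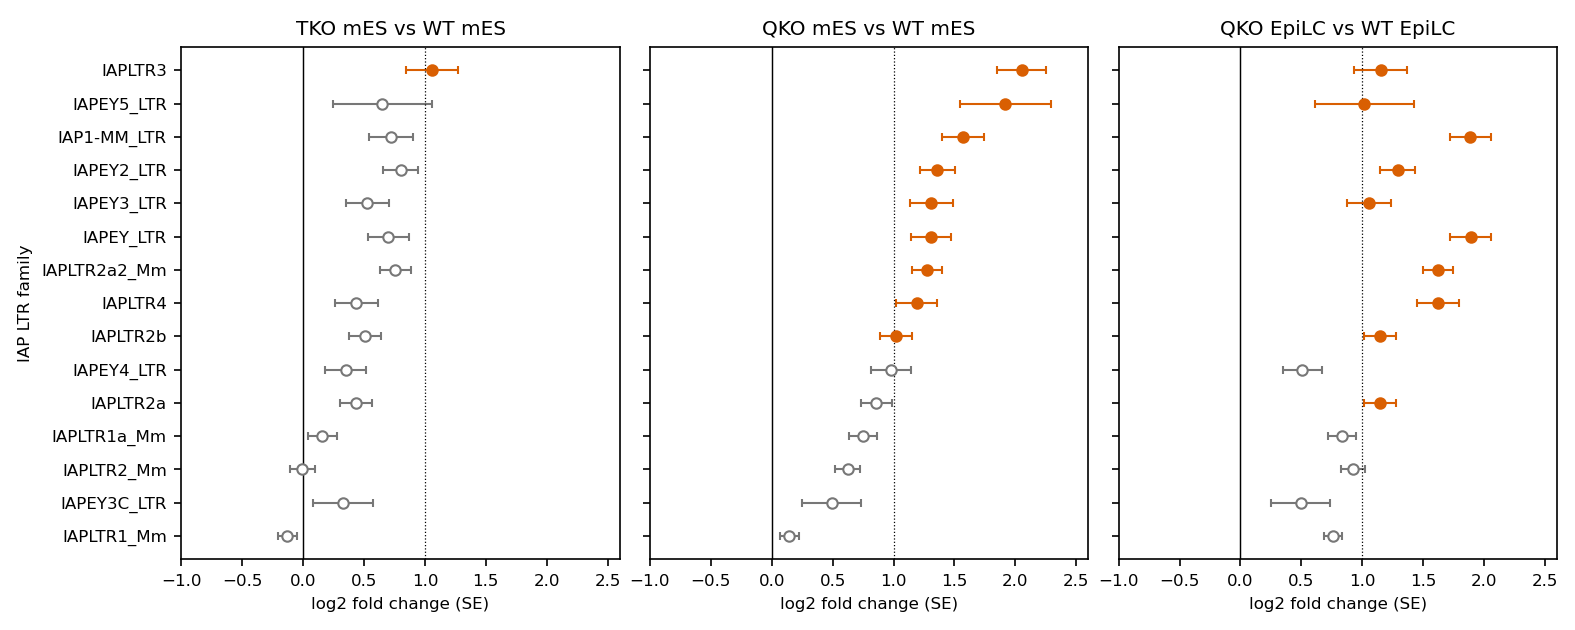
Log2 fold changes of the 15 IAP LTR families (multimapped counts) in TKO mES cells, QKO mES cells and QKO EpiLCs against WT of the same stage, with whiskers for the SE. Filled points passed an adjusted p of 0.05 and a fold of 2 (dotted line), and IAPLTR3 is the family called in all 3 panels.

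Split by place, IAP LTR families rose in QKO cells both inside and outside genes, as other TE families also did, by amounts that differed between families. In QKO mES cells 11 of 15 families rose outside genes, where 67% of all families did, and 5 of 15 inside, where 13.7% did. In QKO EpiLCs 9 rose outside (background 50.3%) and 5 inside (13.1%). The medians were 1.31 outside and 0.82 inside in mES cells, against 1.18 and 0.60 over all TE families. In EpiLCs they were 1.16 and 0.74, against 1.01 and 0.61. The family IAPLTR3 was higher outside by 3.11 ± 0.38 and inside by 1.06 ± 0.29 in QKO mES cells. IAPEY_LTR differed by 1.61 ± 0.22 outside and −0.14 ± 0.15 inside in mES cells, and by 2.44 outside and 0.44 inside in EpiLCs. IAP1-MM_LTR was at 1.78 outside and 1.32 inside in mES cells, and IAPLTR1_Mm at 0.42 and 0.28. Whether the change of a single family differed between the places was not tested, and only the ratio over all families was.

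**Figure D3:**
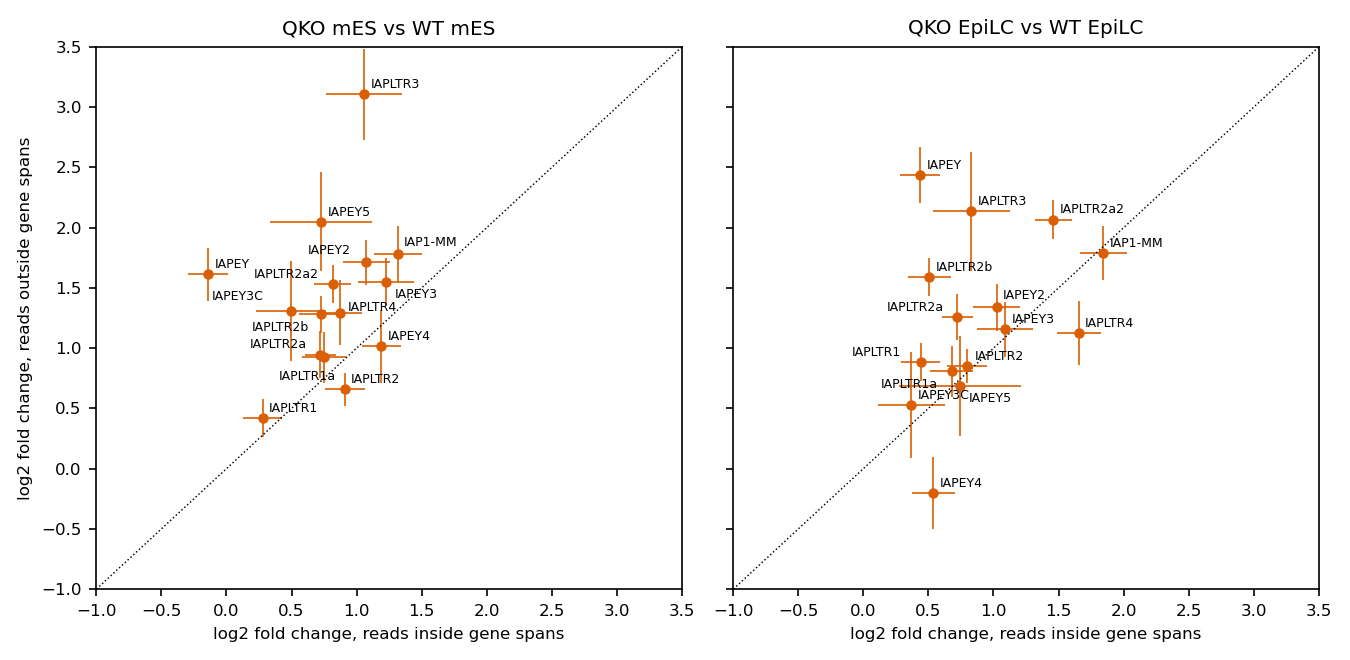
Log2 fold changes of the 15 IAP LTR families between QKO and WT, with unique reads inside gene spans on the horizontal axis and outside gene spans on the vertical axis, for mES cells (left) and EpiLCs (right), with whiskers for the SE and a dotted line for equal change. In mES cells IAPLTR3 lies highest, at 3.11 outside and 1.06 inside, and IAPEY_LTR lies at 1.61 outside and −0.14 inside.

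Single copies were also higher in QKO cells. In QKO mES cells 54 of 155 tested copies rose (34.8%, background 24.1%) and 13 fell (background 1.33%). In QKO EpiLCs 64 rose (41.3%, background 29.6%) and 6 fell (1.35%). Outside genes 22 of 41 rose in mES cells and 26 in EpiLCs, where 44.4% and 44.3% of all tested copies outside did. Inside, 32 and 38 of 114 rose (backgrounds 20.8% and 27.3%). The medians were 0.83 and 1.02 for IAP LTRs and 0.77 and 0.82 for all tested TE copies. With TMM factors computed on the TE copies, 25 rose and 19 fell in QKO mES cells and 36 rose and 14 fell in QKO EpiLCs.

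The copy with the highest fold in QKO mES cells, IAPLTR2a2_Mm_dup1160 (chr11:6741021-6741489, on the 5′ side of an internal part), lies 4440 bp from *Gm11979*, which was itself higher by 2.79 there. It had 0.422, 1.65, 1.81 and 0.857 CPM in the 4 QKO mES libraries against 0 to 0.228 CPM in the 8 WT libraries (4.07 ± 0.59, adjusted p = 4.89e-08). In TKO mES cells it had at most 0.285 CPM, so that the rise stood out in QKO (QKO against TKO 3.29 ± 0.73, adjusted p = 0.00506). IAPLTR3_dup48 (chr7:6614826-6615137) and IAPEY2_LTR_dup396 (chr7:6627199-6627529) lie in the same region, 39609 and 27217 bp from *Zim2*, an imprinted zinc finger gene, and both stand on the 3′ side of an internal part. The first had 0.227, 0.613, 1.02 and 0.411 CPM in QKO mES cells against 0 to 0.0725 CPM in WT (4.04 ± 0.71, adjusted p = 8.37e-06). The second had 0.260, 0.498, 1.65 and 0.274 CPM against 0 to 0.201 CPM in WT (3.58 ± 0.67, adjusted p = 3.06e-05). In both the QKO replicate 3 library was the highest, and *Zim2* itself was higher by 3.15 in QKO mES cells.

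IAPLTR2_Mm_dup1441 (chr16:13747862-13748338), a solo LTR on the same strand as *Mpv17l* and within an intron of it, had 1.46, 1.23, 1.45 and 0.994 CPM in QKO mES cells against 0 to 0.246 CPM in WT (3.74 ± 0.51, adjusted p = 1.04e-08). *Mpv17l* as a whole differed by 0.30 and was not called. IAPLTR3_dup935, the solo LTR on chromosome 16, had 0.909, 1.07, 0.667 and 1.10 CPM in QKO mES cells against 0.0242 to 0.181 CPM in WT (3.5 ± 0.52, adjusted p = 1.2e-07). In EpiLCs this copy was read in 1 of 8 WT and 1 of 4 QKO libraries, at 0.0390 and 0.0320 CPM, and in no LBRKO or TKO library. Its rise accounted for 44.2% of the IAPLTR3 rise outside genes in QKO mES cells, which was 1.93 CPM in all.

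In QKO EpiLCs the leading copies were others. IAP1-MM_LTR_dup380 (chr17:34765232-34765509), on the 3′ side of an internal part in an intron of the butyrophilin-like pseudogene *Btnl7-ps* and on the opposite strand, had 2.81, 2.43, 2.26 and 2.77 CPM in QKO EpiLCs against 0 to 0.117 CPM in WT (5.68 ± 0.41, adjusted p = 1.5e-20). In mES cells the TKO libraries had 0.627, 0.392, 0.383 and 1.09 CPM, the QKO libraries 1.43, 1.49, 1.65 and 1.06 CPM and the WT libraries 0.0725 to 0.360 CPM. The 3 internal IAP copies beside it had 0.186 CPM in WT and 11.1 CPM in QKO EpiLCs, and *Btnl7-ps* was higher by 3.82. This 1 copy held 61.7% of the rise of IAP1-MM_LTR inside genes in EpiLCs.

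IAPEY_LTR_dup205 (chr6:34168977-34169360), outside genes, was not read in any of the 8 WT EpiLC libraries and had 0.791, 0.256, 0.393 and 0.644 CPM in QKO EpiLCs, at least 51.3-fold higher than the limit that 3 counts over the WT group allow. IAPEY_LTR_dup1257 near *Rubcnl*, which encodes the autophagy regulator Pacer, had 0.863 to 1.18 CPM in QKO EpiLCs against 0 to 0.0683 CPM in WT (5.28 ± 0.53, adjusted p = 1.10e-13), and *Rubcnl* was higher by 4.92. IAPLTR2a2_Mm_dup1263 at the *Gm30198* exon had 3 reads in WT EpiLCs and 75 in QKO, a ratio of 59.2 with a 95% counting interval of 19.5 to 293, and *Gm30198* was higher by 5.62. IAPLTR2a2_Mm_dup643, 5049 bp from *Ninj2*, for the adhesion protein ninjurin 2, rose by 4.66 ± 0.53 (adjusted p = 1.62e-11) while *Ninj2* differed by 0.33. IAPLTR2a2_Mm_dup1201 in *Ncbp3* had 9.50, 11.7, 13.2 and 12.0 CPM in QKO EpiLCs against 2.15 to 5.82 CPM in WT, and held 54.6% of the rise of IAPLTR2a2_Mm inside genes.

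**Figure D4:**
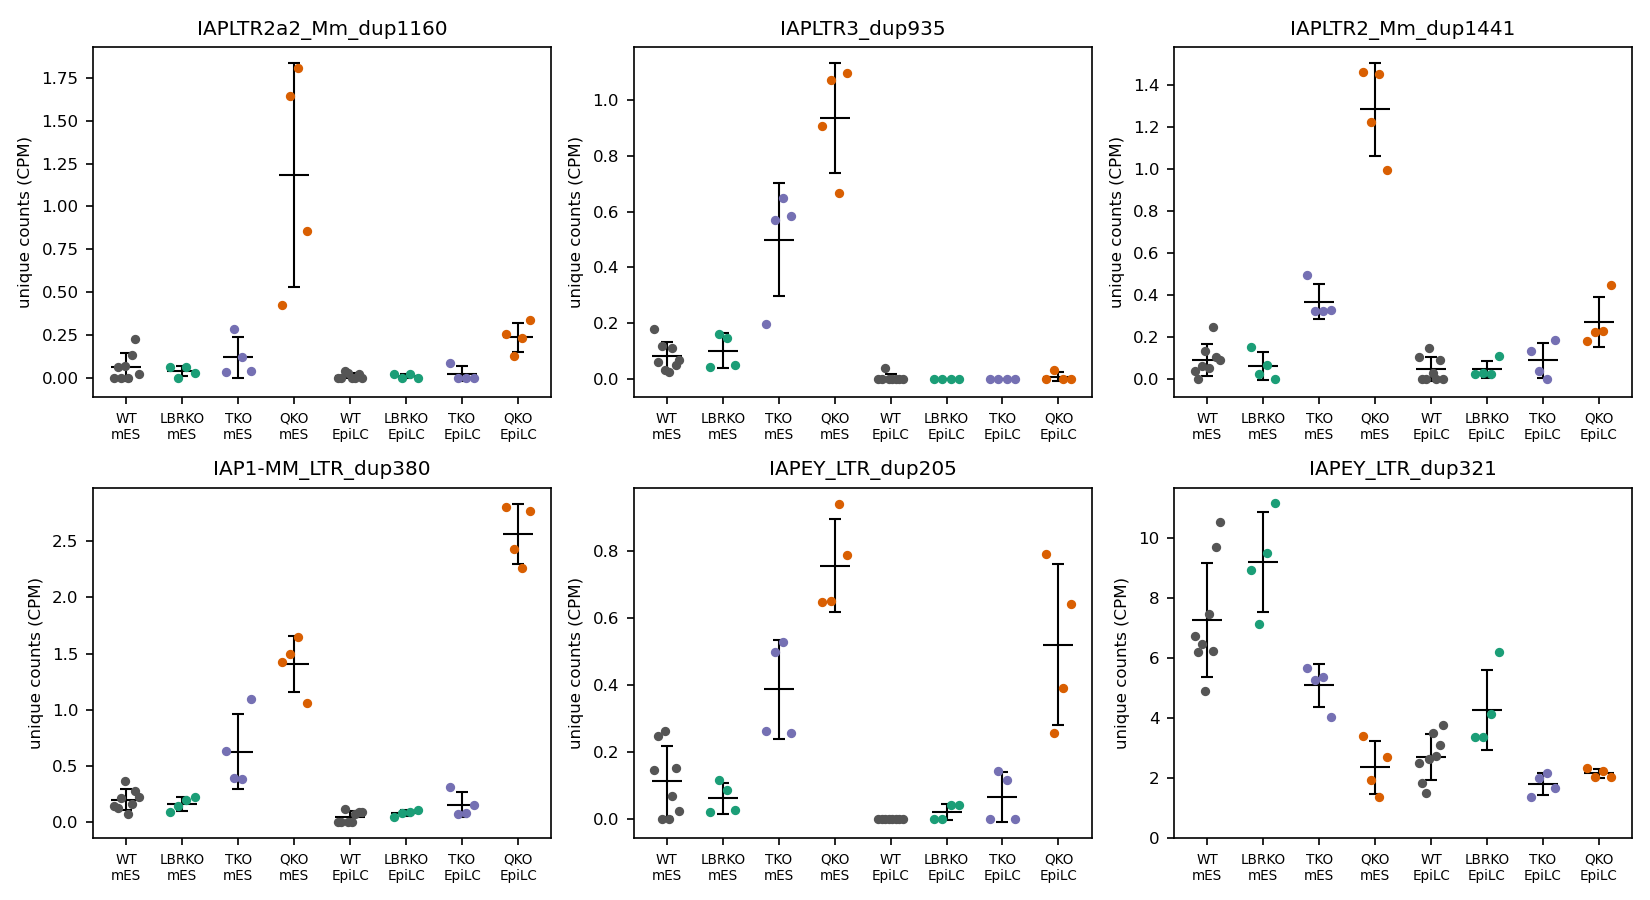
Unique counts (CPM) of 6 named IAP LTR copies in every library of the 8 groups, with bars for the mean and whiskers for the SD (n = 8 for WT, n = 4 for each mutant). IAPLTR3_dup935 is high in TKO and QKO mES cells and near 0 in all EpiLCs, IAP1-MM_LTR_dup380 is highest in QKO EpiLCs at 2.26 to 2.81 CPM, and IAPEY_LTR_dup321 is lowest in EpiLCs and in QKO mES cells.

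Fewer copies fell in QKO mES cells. IAPEY_LTR_dup321 in *Dkc1* had 4.90 to 10.55 CPM in WT mES cells and 3.41, 1.95, 1.37 and 2.71 CPM in QKO (−1.62 ± 0.21, adjusted p = 1.92e-09), with *Dkc1* at −0.50. In WT EpiLCs this copy had 1.52 to 3.79 CPM, so the QKO mES values lay in the range of WT EpiLCs apart from 1 library below it. IAPLTR2a2_Mm_dup565 had 0, 0.153, 0.118 and 0 CPM in the QKO mES libraries and 0.165, 0.107, 0.0883 and 0.0365 in the TKO ones, against 0.361 to 0.723 CPM in WT (−3.00 ± 0.59 and −2.39 ± 0.54, adjusted p = 4.98e-05 and 0.00136). In EpiLCs it went the other way in QKO, at 0.324, 0.192, 0.295 and 0.140 CPM against at most 0.0342 CPM in WT, and it was at 0.125 to 0.363 CPM in LBRKO EpiLCs. IAPLTR2_Mm_dup1430, 1779 bp from *Dnajc22*, was lower by −1.29 (adjusted p = 0.00856) with *Dnajc22* at −2.68, and IAPEY_LTR_dup235 in an intron of *Bcat1*, for a branched-chain aminotransferase, by −1.28 (adjusted p = 0.00278) with *Bcat1* at 0.14.

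The strongest falls in TKO and QKO cells were in copies that the other line of origin alone expressed. IAPLTR1_Mm_dup216 (chr2:154196183-154196576), on the 5′ side of an internal part and overlapping an exon of *Cdk5rap1*, for a tRNA-modifying enzyme, on the opposite strand, had 0.505 to 1.31 CPM in WT and 0.666 to 0.891 CPM in LBRKO mES cells. Of the TKO and the QKO mES libraries only replicate 3 of each had a read, at 0.0294 and 0.0785 CPM. In reads this was 280 over the WT mES libraries against 1 over TKO (ratio 114, 95% counting interval 20.3 to 4520) and 2 over QKO (ratio 53.1, interval 14.6 to 441). In EpiLCs there was no read in TKO or QKO, at least 31.4-fold and at least 35.8-fold lower than WT by the 3-count limit. The LTR at the other end of the same element, IAPLTR1_Mm_dup217, had 187 reads over the 24 WT and LBRKO libraries and 0 over the 16 TKO and QKO libraries, and the 2 internal copies between them had 8.03 CPM in WT and 8.15 CPM in LBRKO mES cells against 0.549 in TKO and 0.345 in QKO. *Cdk5rap1* itself differed by −0.30 in TKO and −0.41 in QKO mES cells and was not called.

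Such splits were counted over all members as a description chosen after seeing the data. Of 365 IAP LTR copies with a mean of at least 2.5 reads a library in either pair of genotypes, 12 had reads in WT and LBRKO and at most 3 over all TKO and QKO libraries, and 5 were the reverse, 4.66% together in 14 loci. The share was 1.74% of 691 IAP internal copies and 0.378% of 302878 other TE copies. Of the 17 copies 9 were IAPLTR1_Mm, which had 59 measured copies (15.3%). IAPLTR1_Mm_dup1209 in an exon of *Slc38a6* had 382 reads in WT and LBRKO and 0 in TKO and QKO, IAPLTR1_Mm_dup307 had 181 and 0, and IAPLTR1a_Mm_dup1778 at *H2-T24* had 135 and 0. In the other direction IAPLTR2a2_Mm_dup1705 in *Memo1* had 1 and 73 reads and IAPLTR1_Mm_dup554 in *Snd1* had 0 and 42. Lamin genotype and line of origin cannot be told apart for these copies, and the same holds for every difference of TKO or QKO from WT.

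**Figure D5:**
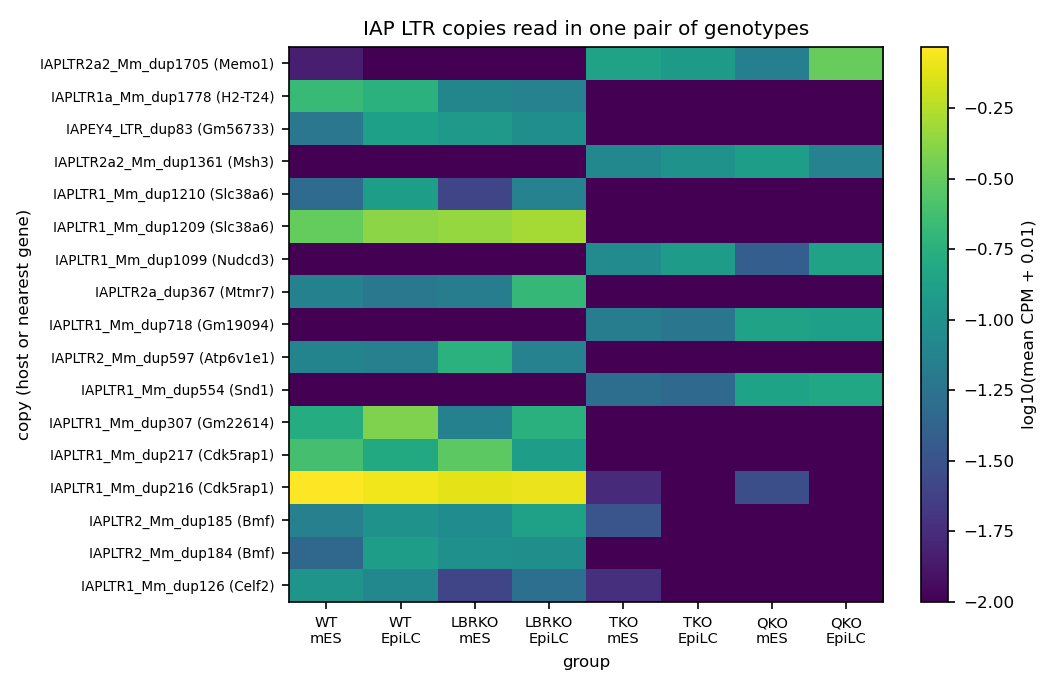
Mean level, as log10 of CPM plus 0.01, of the 17 IAP LTR copies read in 1 pair of genotypes and nearly absent from the other, with groups in columns and copies, named with their host or nearest gene, on the vertical axis. The upper end of the scale is held by IAPLTR1_Mm_dup216 in WT and LBRKO cells, 12 copies are dark in TKO and QKO, and 5 are dark in WT and LBRKO.

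QKO and TKO cells share 1 line of origin and differ by the disruption of *Lbr*. QKO is also a single clone of that line, so the disruption and the clone cannot be told apart. In mES cells 1 of 15 families rose (background 4.47%), IAPEY5_LTR by 1.27 ± 0.44 (adjusted p = 0.0326, lost without QKO replicate 1, 3 or 4 or TKO replicate 2 or 4, at 1.04 to 1.29), with a median of 0.61 over the families, and 2 of 155 copies rose (background 1.24%) and 1 fell (0.12%). The other copy that rose was IAPEY_LTR_dup234 in an intron of *Plekha5*, with 0.779, 0.574, 0.392 and 0.789 CPM in QKO and 0.0330, 0.107, 0.0883 and 0.365 CPM in TKO mES cells (2.11 ± 0.58, adjusted p = 0.0375, lost without any 1 library but QKO replicate 3 and TKO replicate 4, at 1.78 to 2.16). In EpiLCs 7 of 15 families rose (background 21.8%), with a median of 0.92, and 45 of 155 copies rose (background 12.6%) while edgeR and DESeq2 called none lower (background 0.537%), with 2 below TKO before adjustment. With TMM factors computed on the TE copies 15 rose and 1 fell. IAPEY5_LTR (1.85), IAP1-MM_LTR (1.51), IAPLTR4 (1.49), IAPEY_LTR (1.37), IAPLTR3 (1.26), IAPLTR2a2_Mm (1.14) and IAPEY2_LTR (1.03) were the families called. The IAPEY5_LTR folds rest on few reads, with 512 multimapped counts over all libraries and a mean of 0.107 CPM in TKO EpiLCs. The outside sum differed by 0.66 in mES cells and 1.20 in EpiLCs and the inside sum by 0.49 and 0.95, each with no overlap between the 4 libraries of each genotype (exact permutation, adjusted p = 0.0429, the smallest that 4 against 4 libraries gave). Against LBRKO, where line of origin and genotype both differ, 10 of 15 families rose in QKO mES cells (background 12.5%) and 5 in QKO EpiLCs (7.44%), and 36 and 34 of 155 copies rose (backgrounds 11.1% and 12.4%) while 8 and 6 fell (backgrounds 1.5% and 1.02%).

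Interaction terms compared the effects themselves. On the log2 scale the QKO change exceeded the sum of the LBRKO and TKO changes in EpiLCs for IAP1-MM_LTR (1.23 ± 0.28, adjusted p = 0.000879), IAPLTR4 (1.09 ± 0.28, adjusted p = 0.00276) and IAPLTR3 (1.08 ± 0.35, adjusted p = 0.0205), and for the copy IAP1-MM_LTR_dup380 (3.38, adjusted p = 0.0147). The shares of all TE features with such a positive term were 4.38% of families and 0.861% of copies. In mES cells neither edgeR nor DESeq2 called a family for this term (background 2.63%), and 11 were above 0 at an unadjusted p under 0.05. Of the copies IAPLTR2a2_Mm_dup1160 exceeded the sum in mES cells (4.01, adjusted p = 0.0455) and IAPEY_LTR_dup321 fell short of it (−1.44, adjusted p = 0.0015), with backgrounds of 0.778% and 0.136%. The TKO effect on IAPLTR3 was smaller in EpiLCs than in mES cells (−1.16 ± 0.33, adjusted p = 0.0166, background 1.23%), which was lost without TKO EpiLC replicate 3 or TKO mES replicate 4. The LBRKO effect was larger in EpiLCs for 2 copies (background 0.342%), IAPLTR2a2_Mm_dup1201 (1.11) and dup565 (3.68), and for 1 of them without LBRKO EpiLC replicate 4. The QKO effect differed between the stages for 11 copies (background 1.4%), all with the larger value in EpiLCs, most of all IAPLTR2a2_Mm_dup565 (6.81, adjusted p = 1.99e-08) and IAPEY_LTR_dup205 (4.42).

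Other TE copies near the LTRs were examined next. For copies with at least 3 other tested TE copies within 25 kb, the median change of those neighbours was set beside the copy. Outside genes, 20 of 36 such copies rose in QKO mES cells, and for 15 of these the neighbours' median was above 1 on the log2 scale, against 5 of the 12 that were not called. In QKO EpiLCs it was 19 of the 25 that rose and 3 of 9. The median over all tested TE copies outside genes was itself above 1, at 1.19 in QKO mES cells and 1.15 in QKO EpiLCs. Of the 4 outside copies that fell in QKO mES cells, 0 had neighbours with a median below −1. In the WT passage 16 of the 19 outside copies that fell had neighbours with a median below −1. Across the 36 copies the copy and its neighbours correlated with Pearson's r = 0.52 in QKO mES cells, 0.69 in QKO EpiLCs and 0.86 in the WT passage, as a description over points that share libraries and depth. Inside genes, 12 of the 28 copies that rose in QKO mES cells had neighbours above 1, against 12 of the 65 that were not called. Of the 8 inside copies that fell there, 0 had neighbours below −1. Of the 32 inside copies that rose in QKO mES cells 7 had a host gene that rose, and of 38 in QKO EpiLCs 12 had one and 1 had a host that fell. Of all tested genes 10.6% rose in QKO mES cells and 13% in QKO EpiLCs.

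The rise was spread over more copies outside genes than inside. In QKO mES cells the summed level rose by 38.2 CPM inside and 36.1 CPM outside, and the 10 copies with the largest rises held 34.4% of the first and 22.4% of the second. In QKO EpiLCs the rises were 47.2 and 29.9 CPM and the top 10 held 40.1% and 27.5%. In TKO mES cells they were 8.39 and 13.4 CPM with 78.5% and 32.0%. These are shares of the net change, from which falls were subtracted, so falls raise them. In TKO mES cells 566 copies were higher and 625 lower inside, and 853 were higher and 964 lower outside. The pools also differ in size, with 3177 copies inside and 11940 outside. The 41 tested copies outside held 32.3% of the outside rise in QKO mES cells, so that most of it fell on copies too low to test one by one. At an even depth, matched on gene counts, 274 copies outside genes had a read in a WT mES library and 485 in a QKO mES library on average, and inside 352 and 484.

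The tested copies were also split by structure. In QKO mES cells 42 of 109 tested solo LTRs rose and 7 fell (median 0.92). On the 5′ side 4 of 17 rose and 1 fell (0.61), and on the 3′ side 8 of 29 rose and 5 fell (0.53). Of all tested TE copies 24.1% rose and 1.33% fell, so the rises beside an internal part were near the general share. In QKO EpiLCs the medians were 1.15, 0.94 and 0.51. Within genes, 11 of 38 copies on the strand of the host and 21 of 76 on the opposite strand rose in QKO mES cells (background 20.8%). The ratio of multimapped LTR to internal IAP counts, a measure added after seeing the data, was 0.228 in WT and 0.287 in QKO mES cells (log2 difference 0.34, exact permutation, adjusted p = 0.0222) and 0.247 and 0.303 in EpiLCs (0.30, exact permutation, adjusted p = 0.0222). The EpiLC value did not pass without any 1 QKO library (0.27 to 0.32). CpG density differed between families, from a median of 2.04 per 100 bp in IAP1-MM_LTR and 2.31 in IAPLTR4 to 5.47 in IAPLTR1_Mm and 5.92 in IAPLTR1a_Mm. Across the 15 families CpG density and the QKO change correlated with Pearson's r = −0.51 and Spearman's rho = −0.50 in mES cells and −0.23 and −0.21 in EpiLCs, as a description over families that share libraries and sequence.

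A list of genes known for IAP silencing and DNA methylation, which also holds genes that oppose methylation (*Dppa3*, *Tet1* and *Tet2*), was examined last. Of 34 tested genes of 36 on it, 2 rose in QKO mES cells, where 10.6% of all genes rose, and 4 in QKO EpiLCs, where 13% did. The others were not called at either stage. The genes that rose were *Dnmt3l*, a cofactor of the de novo DNA methyltransferases (2.28 in mES cells and 2.07 in EpiLCs), the KRAB zinc finger gene *Zfp429* (2.95 and 2.45) and, in EpiLCs, *Dppa3*, which opposes maintenance methylation (1.99), and the DNA demethylase *Tet1* (1.02). TKO mES cells also had *Dnmt3l* (1.32) and *Zfp429* (3.11) higher (background 2.68%). The list's median difference from WT was 0.01 in QKO mES cells and −0.02 in QKO EpiLCs. From WT mES cells to WT EpiLCs 5 rose and 2 fell (backgrounds 18.2% and 12.9%), with the DNA methyltransferases *Dnmt3a* (4.04) and *Dnmt3b* (4.32) higher and *Tet2* (−3.30) and *Dppa3* (−4.78) lower.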

How the data were processed

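Total RNA was sequenced from 40 libraries. The authors trimmed reads, aligned them and deposited read counts for 56748 genes, for each TE copy from uniquely mapped reads, and for each gene and TE family with multimapped reads included. Per the submitters' processing notes the tools were cutadapt 2.5, STAR 2.7.10a, SAMtools 1.10 and featureCounts 1.6.4 of Subread, and the strand setting of the copy counts is not given in the sources used here. All values used here were the deposited counts, which are whole numbers and not normalized. No pair of libraries held identical counts. Counting error falls with depth, and the totals of 22.6 to 48.9 M gene counts leave single IAP LTR copies at a few reads a library.

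Groups were taken from the labels. edgeR 4.0.16 (R 4.3.3) fitted a quasi-likelihood model over all 8 groups to each whole table, with TMM factors of the gene table for copies and places, after filterByExpr with a minimum count of 10. A feature was called past a Benjamini-Hochberg adjusted p of 0.05 and a fold of 2. Sums over copies were tested by two-sided exact permutation over libraries on the log2 scale. Comparisons with WT share the same WT libraries. Places and exon overlaps came from the gene table's own coordinates. Gene names (56017 of 56748 identifiers found) and sequences came from GRCm39 with GENCODE M39 and RefSeq promoters, read with pysam 0.24.0 and samtools 1.23.1. The counting intervals (95%) and 3-count limits cover counting error only.

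The members and gene lists were chosen with earlier results of these data known. Named copies were those called with a mean of at least 0.5 CPM in the higher group and libraries that did not overlap, the 5 highest and 5 lowest by fold for QKO against WT, TKO against WT in mES cells and the WT stages, and 3 of each for other comparisons. Other copies were chosen after their values were seen. Alternatives were DESeq2 1.42.0, other scalings, filters, place rules, WT subsets, a replicate block and leaving out each library, where copies kept the trended dispersion of all libraries. On simulated counts of 134958 TE copies for QKO against WT mES cells, 13.4% of changes of 2-fold and 100% of those of 4-fold and 8-fold were recovered among 200 changed copies, and 4 unchanged copies were called. A change of 2-fold lies at the fold limit itself. The changed copies were drawn from TE copies with higher counts, none of them an IAP LTR, at a fixed spread. These shares therefore do not carry over to IAP LTR copies with few reads. GenomicRanges 1.54.1, Biopython 1.88 and matplotlib 3.10.9 were also used. Ratios to ancient copies and to internal parts, neighbours, motifs and the split by line of origin were added after seeing the data.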

Additional observations from a re-analysis of the deposited data

Results flagged for a closer look

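Of 263 groups of 4 to 8 libraries examined, 18 held a library whose gap to the rest was large for the range of its group, where chance gives about 1 in 20. That rate does not hold for copies with few reads, where 1 read in 1 library is enough. WT mES replicate 7 had the highest summed IAP LTR level inside genes (89.6 CPM) and outside genes (34.7 CPM), and the copy IAPEY_LTR_dup235 was at 2.46 CPM there. In the multimapped table IAPLTR1_Mm was lowest in WT EpiLC replicate 1 (33.0 CPM) and IAPLTR2a2_Mm stood apart in LBRKO EpiLC replicate 3 (9.46 CPM).

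Among named copies, the libraries that stood apart in mES cells were QKO replicate 2 for IAPEY_LTR_dup1257 (0.613 CPM), TKO and QKO replicate 3 for IAPLTR1_Mm_dup216 (0.0294 and 0.0785 CPM) and TKO replicate 1 for IAPLTR2_Mm_dup1441 (0.495 CPM). In EpiLCs they were QKO replicate 3 for IAPEY2_LTR_dup396 (0.491 CPM), LBRKO replicate 4 for IAPLTR2_Mm_dup1441 (0.106 CPM), TKO replicate 1 for IAPLTR2a2_Mm_dup1160 (0.0882 CPM) and TKO replicate 2 for IAPLTR2a2_Mm_dup565 (0.0355 CPM). For IAPLTR3_dup48 they were LBRKO replicate 2 (0.0255 CPM), TKO replicate 2 (0.0355 CPM) and QKO replicate 3 (0.393 CPM), and for IAPLTR3_dup935 WT replicate 3 (0.0390 CPM) and QKO replicate 2 (0.0320 CPM). The values of IAPLTR3_dup935, of IAPLTR3_dup48 in LBRKO and TKO, of IAPLTR2a2_Mm_dup565 and of IAPLTR1_Mm_dup216 in TKO were each 1 read. The rest of the group had 0.

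Effects that differed between groups in edgeR's test of the difference, on the log2 scale, were these. In mES cells QKO departed from the sum of LBRKO and TKO by 4.01 for IAPLTR2a2_Mm_dup1160 and −1.44 for IAPEY_LTR_dup321. In EpiLCs it did so by 3.38 for the copy IAP1-MM_LTR_dup380, and by 1.23 for the family IAP1-MM_LTR, 1.08 for IAPLTR3 and 1.09 for IAPLTR4. The LBRKO effect in EpiLCs exceeded that in mES cells by 1.11 for IAPLTR2a2_Mm_dup1201 and 3.68 for IAPLTR2a2_Mm_dup565, and the TKO effect on IAPLTR3 was lower by −1.16. The QKO effect in EpiLCs exceeded that in mES cells by 6.81 for IAPLTR2a2_Mm_dup565, 4.42 for IAPEY_LTR_dup205, 3.92 for IAPLTR2a2_Mm_dup1263, 3.71 for IAPLTR2a2_Mm_dup643, 3.51 for IAPLTR2_Mm_dup595 and 3.19 for IAPEY_LTR_dup1257. The others were IAP1-MM_LTR_dup380 (2.85), IAPEY_LTR_dup294 (2.503), IAPLTR4_dup87 (2.40), IAPEY_LTR_dup321 (1.29) and IAPLTR2a2_Mm_dup1201 (1.17).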

How the results depend on the processing

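Of the values that answer a comparison, 343 kept their direction, side of the threshold or count under the alternatives, 53 counts moved by over 1.5 times, 17 values no longer passed, 11 newly passed and 6 reversed. When 1 library was left out at a time, 840 stayed, 38 moved, 37 no longer passed, 20 newly passed and 9 reversed. Of the values of single copies and families, 15 no longer passed under the other alternatives and 39 without 1 library, and none reversed. Except where fewer libraries or other features entered, the cause was not tested. Changes of 2-fold were recovered in 13.4% of simulated cases. Such a change lies at the fold limit of a call, so this share does not measure the effect of depth.

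Counts of changed copies depended most on the filter. With a minimum count of 30 they were 16 for QKO and 7 for TKO mES cells, 14 for QKO and 2 for TKO EpiLCs, 12 for QKO against TKO EpiLCs and for the WT stages, 7 for the QKO stage difference, 2 for the EpiLC excess over the LBRKO and TKO sum and 1 for the LBRKO stage difference. With no filter for IAP LTR copies they were 315, 63, 348, 33, 83 (QKO against TKO EpiLCs), 187 (WT stages), 18 (QKO stage difference), 2 and 5 (excess over the sum in EpiLCs and mES cells), 5 (QKO against TKO mES cells) and 1 (TKO stage difference). With no filter on low counts QKO and TKO mES cells differed in 0 families. TMM factors on the TE copies gave 44 copies in QKO mES cells, 16 between QKO and TKO EpiLCs, 2 in LBRKO mES cells and 0 for the EpiLC excess. DESeq2's Wald test gave 8 copies and 2 families between QKO and TKO mES cells and 4 copies for the EpiLC excess. DESeq2 size factors gave 2 families between QKO and TKO mES cells and turned the LBRKO mES outside difference to −0.0088.

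With WT replicates 1 to 4 alone, 4 copies changed in LBRKO mES cells, 13 in TKO mES cells, 5 in TKO EpiLCs, 29 between the WT stages, 7 in the QKO stage difference and 7 between QKO and TKO mES cells, and inside genes 8 families in QKO and 0 in TKO mES cells, with 1 outside in TKO. Inside sums were 0.49 in LBRKO EpiLCs and −0.21 between WT stages, no longer passing, 0.40 in LBRKO and 0.34 in TKO mES cells, now passing, and 0.0739 in TKO EpiLCs, reversed, as was the LBRKO mES outside sum (−0.0029). The outside to inside ratio now passed in LBRKO EpiLCs (−0.31) and between WT stages (−0.22). The ratio to ancient copies was 0.16 in QKO EpiLCs, no longer passing, and −0.0268 in QKO mES cells, reversed. The LTR to internal ratio no longer passed in QKO EpiLCs (0.22), QKO mES cells (0.25) and TKO EpiLCs (0.13). Here the smallest p that 4 against 4 libraries can give is 0.0286.

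With WT replicates 5 to 8 alone, 2 copies changed in LBRKO EpiLCs, 1 in the LBRKO stage difference, 2 in the EpiLC excess and 6 between QKO and TKO mES cells, and 0 families in the TKO stage difference and between WT stages. The LTR to internal ratio reversed in LBRKO EpiLCs (0.0313) and LBRKO mES cells (0.0642) and no longer passed in QKO EpiLCs (0.37), QKO mES cells (0.43) and TKO EpiLCs (0.28). The ratio to ancient copies in QKO EpiLCs (0.31), the outside to inside ratio in LBRKO mES cells (−0.0918) and the inside sums in LBRKO EpiLCs (0.26) and between WT stages (−0.28) no longer passed, and the outside to inside ratio in TKO EpiLCs (0.32) and between WT stages (−0.15) newly passed.

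With inside copies required to lie wholly within a gene span, 0 families changed inside in TKO mES cells and the inside sums in LBRKO EpiLCs (0.38) and between WT stages (−0.22) no longer passed. With outside copies over 5 kb from genes, the outside sum (0.25) and outside to inside ratio (0.29) in TKO EpiLCs and that ratio between WT stages (−0.36) passed. Without the copy with the most reads the same ratios were 0.24 and −0.22 and passed, and the inside sums in LBRKO EpiLCs (0.29) and between WT stages (−0.21) did not.

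The deviations of same-numbered libraries correlated at −0.39 to 0.58, and in no comparison was every pair over 0.1. The pairs over 0.1 ran from 0 of 4 between LBRKO and WT mES cells to 7 of 8 between the WT stages. Whether the numbers pair the samples cannot be told from these values, and the main tests did not pair them. Only between QKO and TKO EpiLCs did all 4 libraries correlate best with their own number. With a replicate block, 10 copies changed in LBRKO EpiLCs, 4 in LBRKO mES cells, 5 in TKO EpiLCs, 2 in the EpiLC excess and 8 between QKO and TKO mES cells, with 2 families there, 8 families inside genes in QKO mES cells and 0 in TKO mES cells.

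Leaving out each library gave ranges of 3 to 7 copies in LBRKO EpiLCs, 0 to 3 in LBRKO mES cells, 1 to 3 in the LBRKO stage difference, 28 to 40 between QKO and TKO EpiLCs, 5 to 10 in TKO EpiLCs, and 0 to 3 and 1 to 2 for the excess over the sum in EpiLCs and mES cells. Families ranged from 0 to 1 in TKO mES cells (also inside genes), the WT stages and the QKO and TKO stage differences, and from 0 to 2 between QKO and TKO mES cells. Inside sums ranged from 0.21 to 0.50 in LBRKO EpiLCs, 0.21 to 0.32 in LBRKO mES cells, −0.0843 to 0.0215 in TKO EpiLCs, 0.15 to 0.26 in TKO mES cells and −0.29 to −0.17 between WT stages, and the outside sum in LBRKO mES cells from −0.0325 to 0.063. The outside to inside ratio ranged from −0.22 to −0.16 in LBRKO EpiLCs, −0.28 to −0.21 in LBRKO mES cells, 0.15 to 0.24 in TKO EpiLCs and −0.21 to −0.16 between WT stages. The ratio to ancient copies ranged from 0.18 to 0.27 in QKO EpiLCs, 0.17 to 0.32 in TKO EpiLCs and −0.19 to −0.13 between WT stages. The LTR to internal ratio ranged from −0.12 to 0.00086 in LBRKO EpiLCs, 0.27 to 0.32 in QKO EpiLCs, 0.18 to 0.22 in TKO EpiLCs, 0.17 to 0.22 in TKO mES cells and 0.095 to 0.15 between WT stages.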
